A study of Mus musculus with 12 samples.

Results

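The 36 genes described here carry glucose from the cell surface to lactate, to the mitochondrial pyruvate dehydrogenase complex, or through the pentose phosphate pathway. They were listed by name, as the transporters, enzymes and kinases of these routes. All 36 were present among the 28689 genes of the deposited expression table, and all 36 were among the 12467 genes tested, which reached at least 1 FPKM (fragments per kilobase of transcript scaled to library depth) in at least 6 of 12 libraries.

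RNA-seq had been performed on mouse lung endothelial cells (MLECs) in a search for what links the loss of Sp1 and Sp3, a pair of zinc finger transcription factors, to impaired endothelial function and raised blood pressure. The 6 dKO libraries came from male VE-CAD-CreERT2+/Sp1 fl/fl/Sp3 fl/fl mice, and the 6 CTR libraries from VE-CAD-CreERT2-/Sp1 fl/fl/Sp3 fl/fl littermates, called WT in the sample labels. Both groups carried the floxed alleles and both received tamoxifen, so they differed in Cre, which was driven by the VE-cadherin promoter and removes Sp1 and Sp3 only in cells in which that promoter has been active. Cells were selected with beads against CD31 and then against ICAM2 and grown in culture before use. How many mice entered a library was not stated, so the p-values measure the spread between these libraries, which may be partly technical.

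Glycolysis splits glucose into pyruvate in the cytosol and yields ATP without oxygen, and endothelial cells are known for drawing much of their ATP from it. Pyruvate then either becomes lactate, which leaves the cell through monocarboxylate transporters, or enters mitochondria through pyruvate dehydrogenase, which the pyruvate dehydrogenase kinases switch off. The pentose phosphate pathway branches off at glucose 6-phosphate and supplies NADPH and ribose.

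Depth recovered from the FPKM values was 15523054 to 17938286 fragments per library, and a single member received between 111 (Aldoc) and 24030 (Pkm) fragments in a library. Sp1 averaged 21.2 ± 1.77 FPKM (SD, n = 6) in CTR and 10.6 ± 1.53 in dKO, with no overlap of the groups (log2 fold change -0.95, adjusted p = 5.68e-06, limma). Sp3 averaged 27.7 ± 2.31 and 25.0 ± 1.64 FPKM, and its difference did not pass (log2 fold change -0.14, adjusted p = 0.0902, limma). These values count reads over the whole gene, and the floxed exons were not given in the sources used here. All 10 endothelial markers were detected, and 9 were higher in dKO, their summed level being 169 to 251 FPKM in CTR and 308 to 425 in dKO. Markers of other cells also moved. Macrophage markers summed to 823 to 1371 FPKM in CTR and 2399 to 5349 in dKO (9 of 10 higher and 1 lower). Fibroblast markers summed to 2129 to 2703 FPKM in CTR and 832 to 1661 in dKO (3 of 7 tested lower and 1 higher). Smooth muscle and pericyte markers summed to 497 to 1423 FPKM in CTR and 454 to 845 in dKO (2 of 6 tested higher). The macrophage sum, the fibroblast sum and the smooth muscle and pericyte sum were each above the endothelial sum in each of the 12 libraries. Mesothelial markers summed to 28.8 to 38.6 and 66.3 to 146 FPKM (5 of 6 higher), and other leukocyte markers to 1.65 to 4.92 and 6.53 to 10.8 FPKM (both of the 2 tested higher). The part of these other cells in the results below was not tested, and in bulk RNA fewer cells of a type cannot be told apart from less RNA per cell. Retina markers, looked at because the labels' extraction text names retinas, did not exceed a sum of 0.529 FPKM in any library.

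In the comparison of dKO with CTR, 11 of the 16 enzymes from glucose to pyruvate were higher in dKO, 1 (Pfkm) was lower and 4 did not pass. By the same rule, 1 of the 5 pentose phosphate members was higher, 1 was lower and 3 did not pass, and none changed by more than 1.5-fold. The difference between these sets of genes was not tested. By limma on log2(FPKM + 1) with Benjamini-Hochberg adjustment over all genes tested, 17 of the 36 members were higher in dKO, 4 were lower and 15 did not pass an adjusted p of 0.05. Over all 12467 genes 53.1% passed, 20.4% being higher and 32.6% lower. With a change of more than 1.5-fold also required, 11 members were higher and 1 was lower, where 8.92% and 8.98% of all genes were. A single member, Hk3, passed an absolute log2 fold change over 1.5, the limit as worded in the study's methods, as did 1.98% of all genes. The groups did not overlap in 10 members that were higher in dKO (11.3% of all genes) and in 1 that was lower (16.1% of all genes). The median log2 fold change was 0.28 over the members and -0.10 over all genes tested, and with libraries scaled by the median of ratios it was 0.36 and -0.02. That scaling changed the split of calls over all genes from 2549 higher and 4065 lower to 3213 higher and 3012 lower, and the split among members from 17 and 4 to 19 and 3.

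**Figure D1:**
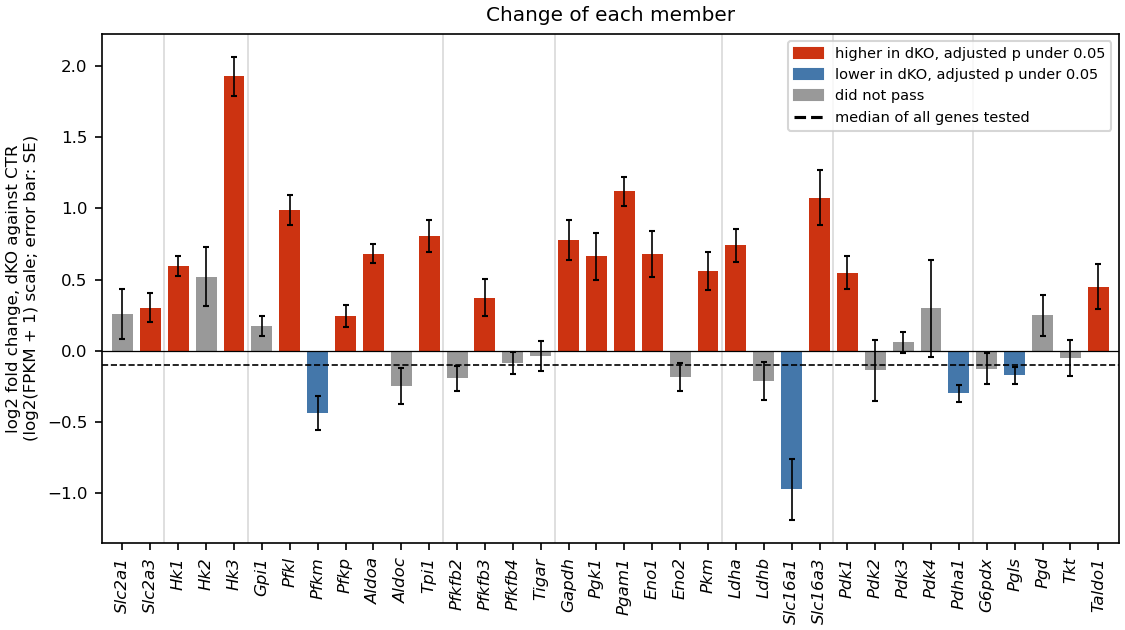
Log2 fold change of each of the 36 members in dKO against CTR on the log2(FPKM + 1) scale (bars; error bars are standard errors from limma, 6 libraries a group), ordered by role and coloured by call at an adjusted p of 0.05. The dashed line is the median of all genes tested, -0.10, and most glycolytic enzymes stand above it while Slc16a1, at -0.97, is the lowest bar.

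Glucose enters through the facilitative transporters Slc2a1 (GLUT1) and Slc2a3 (GLUT3). Slc2a1 was the main form at 23.2 ± 7.24 FPKM in CTR and 27.0 ± 4.0 in dKO (SD, n = 6), and its CTR libraries spread from 14.3 to 32.0 FPKM, so the difference of 0.26 on the log2 scale did not pass (adjusted p = 0.234, limma). Slc2a3 was low, at 1.61 and 2.26 FPKM, and rose by 0.30 on the log2 scale (adjusted p = 0.0206, limma).

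The 3 hexokinases, which trap glucose as glucose 6-phosphate, did not move by the same amount. Hk1 (ENSMUSG00000037012), the general mitochondria-bound form, had a lowest, median and highest CTR library of 8.98, 10.6 and 11.6 FPKM, and the dKO libraries had 15.1, 16.0 and 17.8 FPKM. No dKO library reached down to the CTR range, and the log2 fold change was 0.60 (SE 0.07, adjusted p = 1.91e-05, limma). Hk2, the inducible form, averaged 12.4 ± 4.53 and 17.7 ± 3.82 FPKM, but 1 CTR library stood at 20.1 and the lowest dKO library at 13.2, and its log2 fold change of 0.52 missed the threshold (adjusted p = 0.0501, limma), which it passed under 5 other settings. Hk3 (ENSMUSG00000025877, chr13:55153798-55169276 in GRCm39), a form best known from myeloid cells, had the largest change of all members. Its CTR libraries had a lowest, median and highest value of 1.84, 2.31 and 2.75 FPKM and its dKO libraries 9.85, 10.4 and 18.9 FPKM, a log2 fold change of 1.93 (SE 0.14, adjusted p = 6.75e-07, limma). The highest value was that of dKO replicate 3, and without that library the log2 fold change was 1.79. The same library had the highest macrophage marker sum, 5349 FPKM, and Hk3 and that sum did not overlap between the groups. Whether macrophage RNA accounts for any of the Hk3 difference was not tested.

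**Figure D2:**
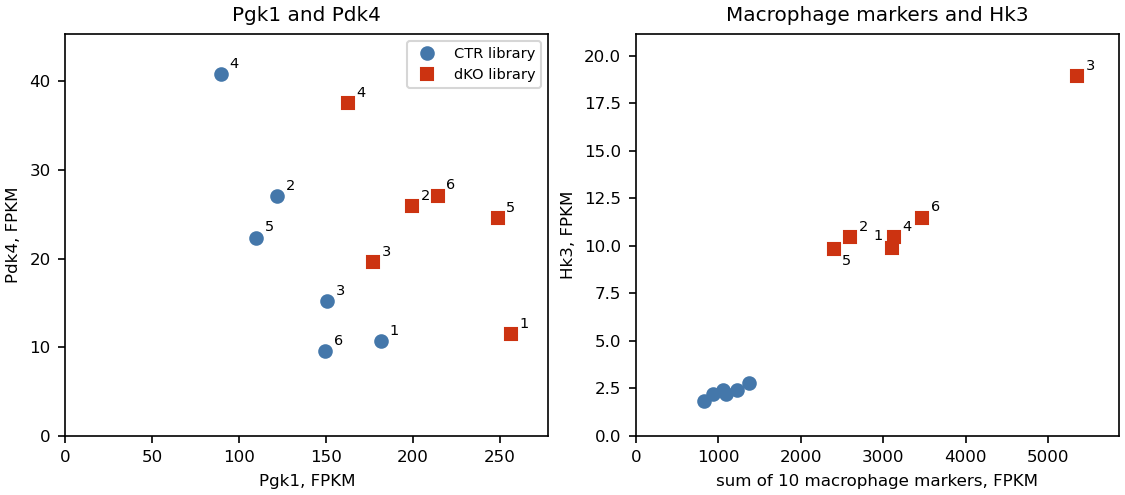
Left, Pdk4 against Pgk1 in each library (FPKM on both axes), with replicate numbers beside the points. Right, Hk3 (FPKM) against the sum of 10 macrophage markers (FPKM), with replicate numbers for dKO; dKO replicate 3 is highest on both axes, at 18.9 and 5349, and the CTR libraries lie together at the lower left.

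Upper glycolysis rearranges glucose 6-phosphate, adds a second phosphate and cleaves the sugar. Of its 7 members, 4 were higher in dKO and 1 was lower, where 20.4% and 32.6% of all genes were. The phosphofructokinases catalyse the committed step, and their 3 forms did not move together. Pfkl (ENSMUSG00000020277, chr10:77818084-77845922 in GRCm39), the liver-type form, had 9.37, 10.1 and 13.8 FPKM as its lowest, median and highest CTR values and 19.9, 21.6 and 28.4 FPKM in dKO. The groups did not overlap, and the log2 fold change was 0.99 (SE 0.10, adjusted p = 9.56e-06, limma). Pfkm, the muscle-type form and the highest of the 3 by FPKM in CTR, fell from 16.9 to 12.1 FPKM (log2 fold change -0.44, adjusted p = 0.00771, limma), while Pfkp, the platelet-type form, went from 4.76 to 5.81 FPKM (0.25, adjusted p = 0.0181, limma). In dKO the order of their FPKM had thus changed, with Pfkl at 22.5 ± 3.02 FPKM above Pfkm at 12.1 ± 1.35. That order depends on the division by gene length. In recovered fragments summed over the CTR libraries, Pfkm (5130) was already below Pfkl (7414) and Pfkp (6532).

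Aldoa, the aldolase that cleaves fructose 1,6-bisphosphate, was a transcript with little spread. Its lowest, median and highest values were 143, 151 and 173 FPKM in CTR and 228, 241 and 269 FPKM in dKO, with a log2 fold change of 0.68 (SE 0.07, adjusted p = 5.91e-06, limma). Aldoc, the brain-type aldolase, stood at 3.13 and 2.44 FPKM and did not pass (adjusted p = 0.117, limma). Tpi1, triosephosphate isomerase, had 74.2, 85.6 and 114 FPKM in CTR and 131, 159 and 176 FPKM in dKO, again without overlap (log2 fold change 0.81, SE 0.11, adjusted p = 7.69e-05, limma). Gpi1, glucose 6-phosphate isomerase, which acts before the committed step, averaged 38.0 and 43.0 FPKM and did not pass (log2 fold change 0.17, adjusted p = 0.0539, limma), although it did with median-of-ratios scaling (0.27, adjusted p = 0.00669), quantile normalization (adjusted p = 0.0377) and the replicate block (adjusted p = 0.0284).

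The bifunctional enzymes of the Pfkfb family set the level of fructose 2,6-bisphosphate, the activator of phosphofructokinase, and Tigar lowers it. Pfkfb3, the form known to drive endothelial glycolysis, was the highest of the 4 at 13.3 and 17.8 FPKM and the only one that passed (log2 fold change 0.37, adjusted p = 0.0278, limma). Its dKO mean was raised by replicate 5, at 26.9 FPKM, and without that library the log2 fold change was 0.25 with an adjusted p of 0.0256. It did not pass without CTR replicate 1 or 6 (adjusted p = 0.0594 and 0.0532, limma), without a filter on low genes (0.0552) or with FPKM rescaled to TPM (0.0560). Pfkfb2 (1.63 and 1.30 FPKM), Pfkfb4 (2.05 and 1.88 FPKM) and Tigar (5.43 and 5.26 FPKM) did not pass.

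Lower glycolysis, from glyceraldehyde 3-phosphate to pyruvate, had 5 of 6 members higher and none lower, where 20.4% and 32.6% of all genes were. Pgam1 (ENSMUSG00000011752, chr19:41900341-41907104 in GRCm39), phosphoglycerate mutase, had 92.9, 103 and 137 FPKM as lowest, median and highest CTR values and 204, 231 and 266 FPKM in dKO. This was a log2 fold change of 1.12 (SE 0.10, adjusted p = 3.87e-06, limma), and the lowest dKO library stood well above the highest CTR library. Pgk1, phosphoglycerate kinase, which makes the first ATP of the pathway, had 89.2, 136 and 182 FPKM in CTR and 163, 207 and 256 FPKM in dKO. Its groups overlapped, and the log2 fold change of 0.66 carried an SE of 0.17 (adjusted p = 0.00489, limma). Eno1, enolase, had 64.1, 94.4 and 124 FPKM in CTR and 125, 149 and 195 FPKM in dKO, where the groups only just separated (log2 fold change 0.68, SE 0.16, adjusted p = 0.00335, limma). Eno2, the neuronal enolase, was low at 3.28 and 2.76 FPKM and did not pass. Pkm, pyruvate kinase, rose from 173 ± 33.4 to 254 ± 36.4 FPKM, a log2 fold change of 0.56 just under the 1.5-fold limit (adjusted p = 0.00341, limma), and its M1 and M2 splice forms cannot be told apart in values per gene.

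Gapdh (ENSMUSG00000057666, chr6:125135289-125143518 in GRCm39), the dehydrogenase of this segment, is widely used as a reference transcript, and it was not constant here. Its lowest, median and highest values were 21.4, 26.9 and 38.4 FPKM in CTR and 37.3, 48.0 and 61.3 FPKM in dKO. Of the dKO libraries, 1 lay inside the CTR range by a narrow margin, and the log2 fold change was 0.78 (SE 0.14, adjusted p = 0.000557, limma). Gapdh is also the member with the most near-identical copies, since 116 other annotated genes, 89 of them pseudogenes, had transcripts that matched it over 150 bases or more with an identity of at least 95%. Of these, 79 were in the expression table. They held 53.5% to 54.6% of the fragments of Gapdh and its copies together in CTR libraries and 53.2% to 56.8% in dKO libraries. So more of these fragments were assigned to the copies than to Gapdh itself, and the shares of the groups overlapped. With the copies added, the log2 fold change was 0.82 (SE 0.14, adjusted p = 0.000448, limma). Of the 116 copies, 3 had an aligned stretch with an identity of 100%. Only uniquely aligned reads were used per the study's methods, so adding the copies does not return reads that matched several places. How far this lowers the Gapdh level was not tested. Among the other members 9 had such copies and 26 had none. Copies held 5.18% and 5.35% of the Eno1 fragments (CTR and dKO) and 2.71% and 2.49% of the Pgam1 fragments, and at most 1.49% for the other 7.

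**Figure D3:**
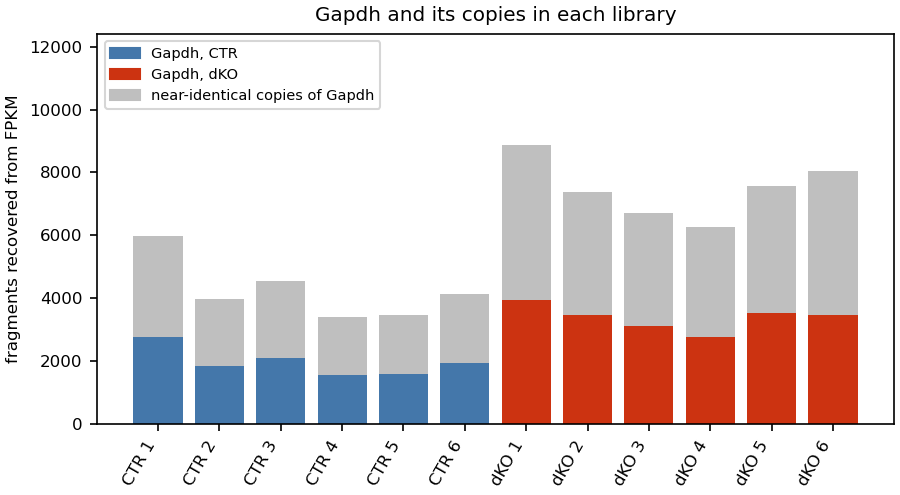
Fragments recovered from the FPKM values for Gapdh (coloured) and for its near-identical copies (grey) in each of the 12 libraries. The copies hold 53.2% to 56.8% of each bar, and both parts of the bar are taller in each dKO library than in every CTR library.

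Of the 4 members of lactate production and export, 2 were higher and 1 was lower, where 20.4% and 32.6% of all genes were. The forms of each family did not move together. Ldha, the lactate dehydrogenase subunit that favours lactate formation, had 128, 158 and 192 FPKM as lowest, median and highest CTR values and 220, 263 and 304 FPKM in dKO. The groups did not overlap, and the log2 fold change was 0.74 (SE 0.11, adjusted p = 0.000163, limma). Ldhb, the subunit that favours the return to pyruvate, averaged 16.2 and 13.8 FPKM and did not pass (log2 fold change -0.21, adjusted p = 0.191, limma). Slc16a3 (ENSMUSG00000025161, chr11:120838846-120851694 in GRCm39), the lactate exporter MCT4, had 4.03, 5.97 and 10.1 FPKM in CTR and 11.7, 13.1 and 21.9 FPKM in dKO. Every dKO library was above every CTR library (log2 fold change 1.08, SE 0.19, adjusted p = 0.000471, limma), and without dKO replicate 5, the highest, the log2 fold change was 0.96. Slc16a1 (ENSMUSG00000032902, chr3:104545811-104565780 in GRCm39), the higher-affinity transporter MCT1, went the other way. Its CTR libraries had 13.2, 24.1 and 32.8 FPKM and its dKO libraries 7.98, 11.3 and 18.0 FPKM, so the groups overlapped through the lowest CTR library, replicate 4, and the highest dKO library, replicate 5 (log2 fold change -0.97, SE 0.21, adjusted p = 0.00199, limma). It was the only member more than 1.5-fold lower.

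To set aside how the libraries were scaled, the share of 1 isoform in the summed FPKM of its family was compared for 8 pairs or families by an exact two-sided permutation test, with p-values adjusted over the 8. Slc16a3 made up 21.5% ± 4.42 (SD, n = 6; 17.9% to 29.6%) of the 2 monocarboxylate transporters in CTR and 55.9% ± 3.91 (50.7% to 61.8%) in dKO (exact permutation p = 0.00216, the smallest this design allows, adjusted p = 0.00866). Ldhb made up 9.54% ± 2.7 of the lactate dehydrogenase pair in CTR and 4.99% ± 0.739 in dKO (exact permutation p = 0.00433, adjusted p = 0.0115, n = 6 a group). Aldoc went from 1.99% to 0.982% of the aldolases (adjusted exact permutation p = 0.00866) and Eno2 from 3.59% to 1.83% of the enolases (adjusted exact permutation p = 0.0173, and 0.0519 without dKO replicate 1). In these 3 families the minor form held a smaller share in dKO, its own FPKM not having passed the test. Hk2 held 47.9% ± 10.2 of the hexokinases in CTR and 38.3% ± 5.27 in dKO (adjusted exact permutation p = 0.0900), and the shares of Slc2a3, Pfkp and Pdk4 differed by less than their spread (adjusted exact permutation p from 0.675 to 0.762). In shares of recovered fragments, which are not divided by gene length, Pfkp differed by -4.71 points in place of -0.30 (adjusted exact permutation p = 0.0173). With libraries paired by replicate number none of the 8 shares passed, the smallest exact p that 6 pairs allow being 0.03125 and the smallest adjusted value 0.0833.

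**Figure D4:**
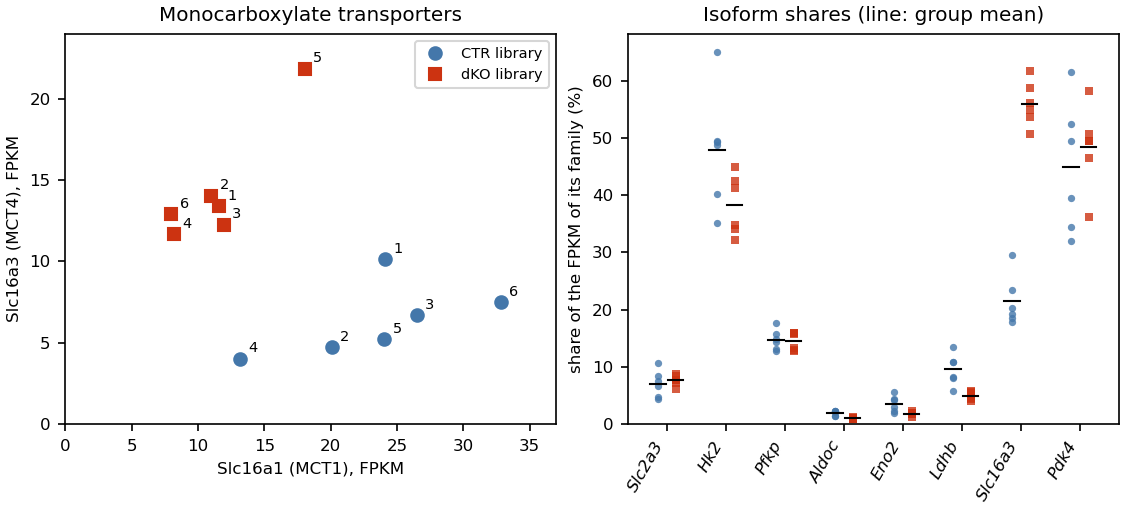
Left, Slc16a3 (MCT4) against Slc16a1 (MCT1) in each library (FPKM on both axes, replicate numbers beside the points): the dKO libraries lie above all CTR libraries in Slc16a3. Right, the share (%) that each named isoform holds of the FPKM of its family in each library, with lines at the group means; Slc16a3 goes from 21.5% to 55.9% without overlap.

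Sp1 and Sp3 bind GC boxes, so the promoters of the members were read for GGGCGG on either strand in the RefSeq windows from 250 bases before to 50 bases after each annotated start, on the GRCm38.p6 assembly of that table (another build than the gene positions above). Windows were found for 35 members, all but Slc2a3, and a gene with several starts was counted once if any window held a match. A GC box was present for 26 of the 35 members (74.3%), for 70.0% of the 9095 tested genes with a window and for 38.2% of all 27025 genes of the promoter table. By call, it was present for 13 of 16 members that were higher, 2 of 4 that were lower and 11 of 15 that did not pass. In the 100 bases before the start it was present for 54.3% of members and 52.9% of tested genes. The letters ACGTG, the core that hypoxia-inducible factors bind and also part of some E-boxes (CACGTG was counted on both strands), were present for 19 of 35 members (54.3%), for 29.6% of the tested genes and for 21.8% of all genes of the promoter table. ACGTG was found in 10 of 16 higher members, 2 of 4 lower members and 7 of 15 that did not pass. A gene with several starts had more bases in which a match could fall, and no adjustment was made for this. These are matches of letters only. The 250 bases before the start are shown for the transporters that moved in opposite directions, for Ldha, and for Gapdh and Hk3 as risen members with no GC box in the window, in lower case with GC boxes in capitals, 5′ to 3′ in the direction of transcription (RefSeq, GRCm38.p6).
Slc16a3 promoter, chr11:120948817-120949066, plus strand: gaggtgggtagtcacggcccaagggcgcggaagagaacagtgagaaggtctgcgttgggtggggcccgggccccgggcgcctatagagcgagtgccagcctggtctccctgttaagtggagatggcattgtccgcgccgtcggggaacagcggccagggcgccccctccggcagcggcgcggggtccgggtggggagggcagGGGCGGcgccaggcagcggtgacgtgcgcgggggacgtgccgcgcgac
Slc16a1 promoter, chr3:104638414-104638663, plus strand: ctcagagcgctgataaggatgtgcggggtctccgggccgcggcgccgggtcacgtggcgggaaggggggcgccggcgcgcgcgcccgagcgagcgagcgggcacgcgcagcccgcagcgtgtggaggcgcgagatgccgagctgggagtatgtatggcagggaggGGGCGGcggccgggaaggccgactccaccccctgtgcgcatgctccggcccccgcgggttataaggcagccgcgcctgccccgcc
Ldha promoter, chr7:46845554-46845803, plus strand: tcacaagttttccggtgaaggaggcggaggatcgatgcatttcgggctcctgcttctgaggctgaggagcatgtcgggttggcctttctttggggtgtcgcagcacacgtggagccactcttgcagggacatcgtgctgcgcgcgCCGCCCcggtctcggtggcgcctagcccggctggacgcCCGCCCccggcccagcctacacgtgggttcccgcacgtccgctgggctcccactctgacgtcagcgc
Gapdh promoter, chr6:125165774-125166023, minus strand: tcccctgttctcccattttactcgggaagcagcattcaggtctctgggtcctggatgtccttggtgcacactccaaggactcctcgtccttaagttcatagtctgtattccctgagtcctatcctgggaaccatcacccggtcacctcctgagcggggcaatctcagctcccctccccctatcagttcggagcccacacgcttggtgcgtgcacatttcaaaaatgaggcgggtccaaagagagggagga
Hk3 promoter, chr13:55021386-55021635, minus strand: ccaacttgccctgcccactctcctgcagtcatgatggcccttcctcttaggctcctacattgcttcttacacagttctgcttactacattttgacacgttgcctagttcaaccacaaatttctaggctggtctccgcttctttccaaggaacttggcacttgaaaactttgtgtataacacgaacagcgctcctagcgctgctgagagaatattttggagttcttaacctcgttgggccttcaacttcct
The Slc16a3 and Slc16a1 stretches held 1 GC box each, and the Ldha stretch held 2. Whether GC boxes or the letters ACGTG have a part in these changes was not tested.

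At the gate to the mitochondrion, 1 of 5 members was higher and 1 lower, where 20.4% and 32.6% of all genes were. Pdk1, a pyruvate dehydrogenase kinase known as a hypoxia target, rose from 2.94 ± 0.292 to 4.84 ± 1.09 FPKM without overlap (log2 fold change 0.55, adjusted p = 0.00138, limma). Pdha1, the catalytic subunit that these kinases phosphorylate, had little spread, at 54.7 to 60.7 FPKM in CTR and 43.2 to 52.8 FPKM in dKO, and it fell by 0.30 on the log2 scale (adjusted p = 0.000921, limma). Pdk2 (6.25 and 5.47 FPKM) and Pdk3 (13.7 and 14.3 FPKM) did not pass. Pdk4, the kinase induced by fasting and fatty acids, was the most abundant of the 4 kinases and the most variable member of the gate, at 9.56, 18.8 and 40.8 FPKM in CTR and 11.5, 25.2 and 37.5 FPKM in dKO, and its log2 fold change of 0.30 had an SE of 0.34 (adjusted p = 0.473, limma). In both groups the library with the lowest Pgk1, replicate 4 (89.2 and 163 FPKM), had the highest Pdk4 (40.8 and 37.5 FPKM).

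None of the 5 pentose phosphate members changed by more than 1.5-fold. Of these, Taldo1, transaldolase of the reversible branch, was higher, from 87.0 ± 14.7 to 121 ± 33.2 FPKM (log2 fold change 0.45, adjusted p = 0.0300, limma). Pgls, the lactonase of the oxidative branch, was lower, from 18.2 to 16.1 FPKM (log2 fold change -0.17, adjusted p = 0.0237, limma), a call lost with median-of-ratios scaling (adjusted p = 0.279) and without dKO replicate 2 (adjusted p = 0.0554). G6pdx, glucose 6-phosphate dehydrogenase and the entry to the pathway, stood at 29.7 ± 5.65 and 26.8 ± 2.18 FPKM, and Pgd, which makes the second NADPH, at 38.0 ± 9.84 and 44.4 ± 4.37 FPKM. Tkt, transketolase, stood at 38.3 ± 8.72 and 36.2 ± 1.81 FPKM, and none of the last 3 passed. The call for Taldo1 was lost under 2 of 11 other settings, by the permutation test and without any of 5 libraries (CTR replicates 2, 4 and 5, dKO replicates 3 and 6), with an adjusted p of up to 0.0731.

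Summed over the 16 enzymes from glucose to pyruvate, FPKM ran from 708 to 1105 in CTR (median 875) and from 1229 to 1639 in dKO (median 1435), a ratio of means of 1.63 without overlap. The 5 pentose phosphate enzymes summed to 178 to 275 FPKM in CTR and 206 to 312 in dKO, a ratio of 1.16 with overlap. The means of the pentose phosphate sum were 211 and 245 FPKM, and Taldo1 alone went from 87.0 to 121 FPKM. In both sums the most abundant genes weigh most, so neither sum describes every enzyme of its set. The libraries of a group also differed along the sum of the 16 enzymes. CTR replicate 1 had the highest value of its group in 23 of the 36 members and CTR replicate 4 the lowest in 16. Among the 17 members that were higher in dKO, CTR replicate 4 and dKO replicate 4 each had the lowest value of their group in 10, and dKO replicate 5 had the highest in 9. CTR replicate 4 also had the highest endothelial, macrophage and lung epithelial marker sums of its group, and dKO replicate 4 the highest fibroblast and lung epithelial sums of its group. Both libraries had the lowest smooth muscle and pericyte sum of their group (497 and 454 FPKM). The part of these cells in the spread was not tested.

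**Figure D5:**
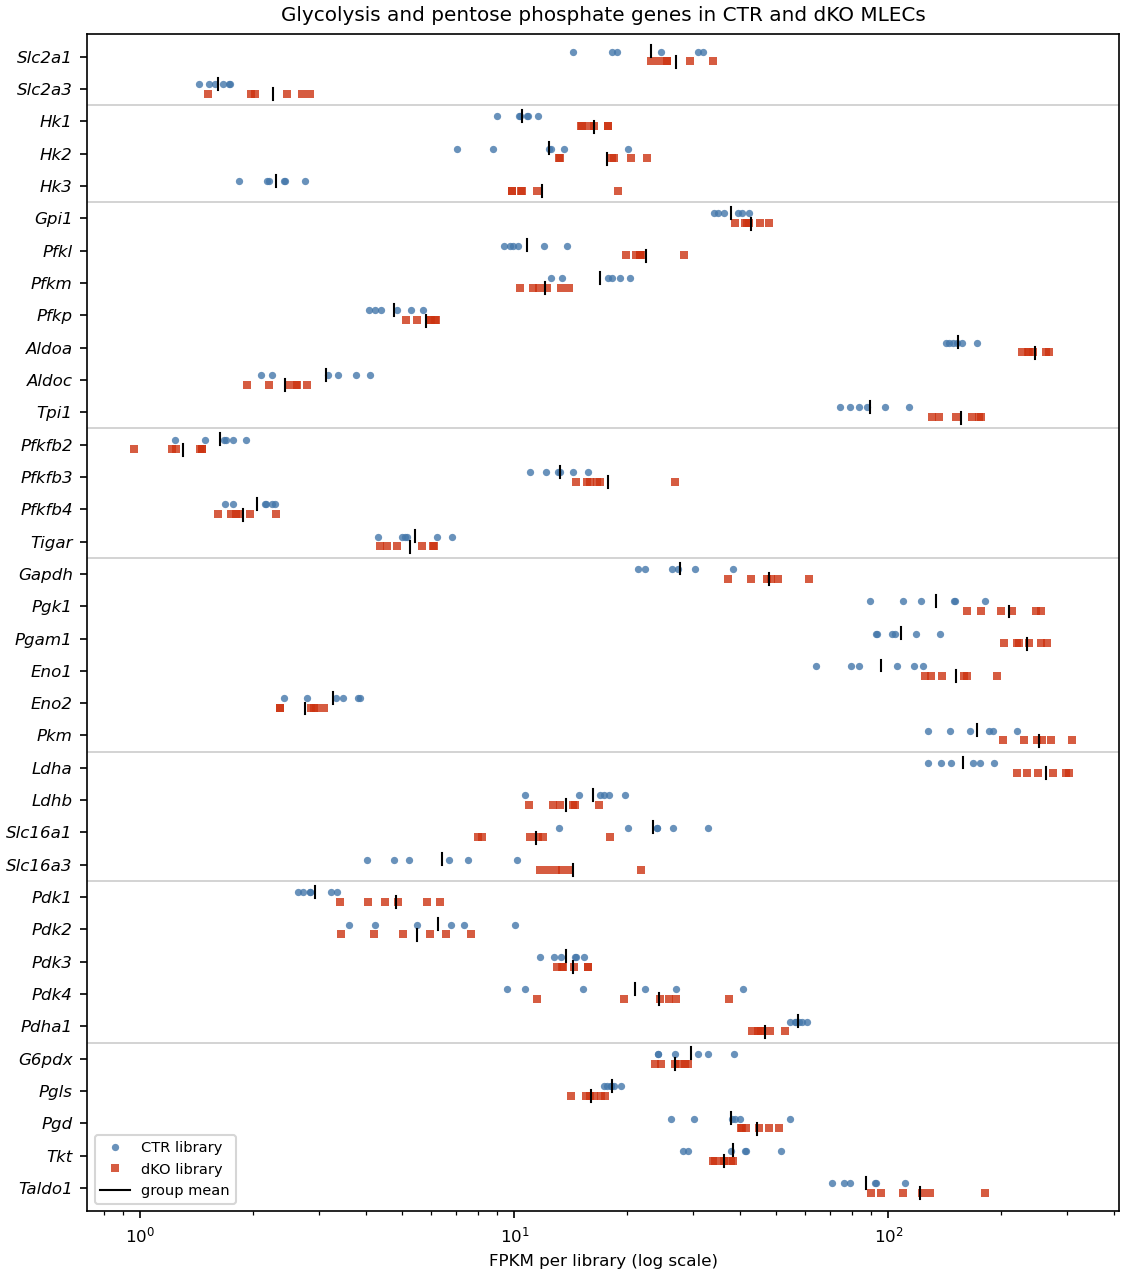
FPKM of each member in each of the 12 libraries (circles CTR, squares dKO, log axis), with lines at the group means and grey rules between roles. Aldoa, Pgam1, Pkm and Ldha lie above 200 FPKM in all dKO libraries, and the pentose phosphate genes at the bottom overlap between the groups.

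Because the reading strand was not given, genes that overlap a member in exons may share its reads. For 10 members another gene at 1 FPKM or more overlapped over at least 150 exonic bases. Slc16a3, with a recovered gene length of 5318 bases, overlapped Csnk1d, a casein kinase gene on the opposite strand, over 4529 bases. Csnk1d was the more abundant and fell from 41.0 to 32.2 FPKM (log2 fold change -0.34, adjusted p = 0.000200, limma). Slc16a3 stood at 6.39 and 14.4 FPKM. Reads within the shared bases cannot be told apart without strand. This limits both the level of Slc16a3 and its share of the monocarboxylate transporters. Pfkl overlapped Cfap410 over 5126 bases, which stood at 2.05 and 1.87 FPKM, and Gapdh overlapped Iffo1 over 2982 bases, at 3.31 and 3.24 FPKM. Pfkp, a low member, overlapped the more abundant Pitrm1 over 1831 bases (29.6 and 25.4 FPKM), so reads within these bases cannot be told apart without strand. Aldoa shared 2320 bases on the same strand with the predicted gene Gm57854, which fell from 7.02 to 0.909 FPKM (log2 fold change -2.08, adjusted p = 5.51e-06, limma).

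Around the members, 61 further genes of glucose metabolism were listed, of which 59 were in the table and 43 were tested. Of the 43 tested, 13 were higher and 12 lower, where 20.4% and 32.6% of all genes were. With a change of more than 1.5-fold also required, 6 passed, as did 17.9% of all genes. Pck2, the mitochondrial phosphoenolpyruvate carboxykinase, had the largest change of the tested genes, from 36 ± 5.11 to 9.70 ± 2.07 FPKM without overlap (log2 fold change -1.80, adjusted p = 1.29e-06, limma). Higher were Slc2a6, a lysosomal hexose transporter (0.766 to 2.75 FPKM), Galm, the mutarotase of glucose (8.87 to 16.1 FPKM), Pgm1, phosphoglucomutase at the branch to glycogen (10.6 to 19.1 FPKM), Prps2, which makes phosphoribosyl pyrophosphate from ribose phosphate (7.93 to 12.5 FPKM), and Pgam2, the muscle-type mutase (2.64 to 4.23 FPKM). Fbp1 and Fbp2, named after their values were seen, did not reach the filter and were not tested. They averaged 0.0572 and 0.0397 FPKM in CTR and 1.72 and 1.29 FPKM in dKO, with overlap of the groups. Among the 8 genes of pyruvate entry into mitochondria, none was higher and 4 were lower, where 32.6% of all genes were lower. Named after their values were seen, these were the carrier subunit Mpc1 (log2 fold change -0.44) and the pyruvate dehydrogenase complex genes Pdhb (-0.33), Dlat (-0.45) and Dld (-0.25). Txnip and Arrdc4, arrestins induced when glucose is plentiful and also chosen after their values were seen, fell from 65.2 to 46.0 FPKM and from 22.8 to 15.7 FPKM (adjusted p = 0.00947 and 0.0103, limma).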

How the data were processed

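RNA-seq of MLECs was available as 1 table for 6 CTR and 6 dKO libraries. The deposited values were FPKM per gene, which the authors made from paired-end reads that aligned uniquely to the mouse genome (mm39, STAR in the study's methods). Per the labels, the authors' processing notes instead list Bowtie2 2.2.3, HISAT2 2.1.0, TopHat2 and DESeq2. The counter, annotation and strand setting were not given in the sources used here. Sample titles gave the groups. The columns of the dKO libraries are named for tamoxifen, which both groups received.

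The authors tested counts with DESeq2. FPKM are not counts, so limma 3.58.1 (R 4.3.3; trend) was fitted on log2(FPKM + 1) over genes that reached 1 FPKM in 6 or more of the libraries, with Benjamini-Hochberg adjustment over all 12467 genes. A log2 fold change on this scale understates changes of low genes. FPKM were whole multiples of 1 fragment for every gene (tolerance 0.1 of a fragment), from which depth and fragments were recovered. Copies were found with BLAST 2.17.0. All members were named, with library values for those past an adjusted p of 0.05 and 1.5-fold and for Gapdh; neighbouring genes were named past the same limits. The members and lists were chosen with earlier results of these data known. Scripts were tested on simulated data. Alternatives covered pseudocount, filter, scaling, variance model, permutation, voom on recovered fragments, copies, pairing and each library left out.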

Additional observations from a re-analysis of the deposited data

Results flagged for a closer look

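With 6 libraries a group, 122 groups of values were screened for a library far from the others, and 6 were found where chance at 1 in 20 gives 6.1. Hk3 was 18.9 FPKM in dKO replicate 3, the other dKO libraries lying between 9.85 and 11.5. In the same library the macrophage markers summed to 5349 FPKM, against 2399 to 3472 in the others. In dKO replicate 5, Pfkl was 28.4 FPKM (others 19.9 to 22.1), Pfkfb3 was 26.9 FPKM (others 14.6 to 16.9) and Slc16a3 was 21.9 FPKM (others 11.7 to 14.1), and the retina markers summed to 0.339 FPKM (others 0.0917 to 0.148). Leaving out dKO replicate 3 or 5 ended none of these 4 gene calls.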

How the results depend on the processing

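Under 12 alternatives that kept every library, 15 to 19 members were higher in dKO and 3 or 4 lower, and with each library left out 16 to 19 were higher and 3 to 6 lower. None of the 21 called members changed sign, 2 that had not passed did (Tigar and Tkt, both among others with median-of-ratios scaling, at 0.04), and 26 of 36 kept their call in every alternative and with any library left out. Hk2 passed under 5 settings, median-of-ratios scaling among them, and its adjusted p ranged from 0.0265 to 0.104, and from 0.00951 to 0.107 with a library left out. Gpi1 passed under 3. Pgls was lost with median-of-ratios scaling (adjusted p = 0.279, limma). Pfkfb3 was lost without a filter and with TPM, and Taldo1 without a filter, with quantile normalization and by the permutation test. Leaving out 1 library gave calls to Gpi1, Pfkfb2, Eno2 and Pgd (CTR replicate 1), Aldoc (CTR replicate 5), Ldhb (CTR replicate 6) and Gpi1 (dKO replicate 4), with adjusted p from 0.0191 to 0.0382, and to the share of Hk2 (CTR replicate 4, 0.0242). With at least 5 FPKM required, 30 members were tested and 7 neighbouring genes were higher in place of 13, fewer being tested. Replicate numbers were shared by CTR and dKO, but the correlation of same-numbered libraries ran from -0.11 to 0.57, and 2 of 6 correlated best with their own number, so pairing was not used. With the replicate block, 19 members were higher and 4 lower, and 0 of 8 isoform shares passed in place of 4, where 6 pairs allow no exact p under 0.03125. FPKM per gene separate neither splice forms nor overlapping strands.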
